A study of Mus musculus with 2 samples.

Results

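The collagen chain genes are the 44 genes, of 32285 in the count tables, whose symbol is Col, a number, the letter a and a number, from Col1a1 to Col28a1. Their transcripts were counted in single cells of the mouse temporomandibular joint (TMJ), the jaw joint. The joints came from wild-type C57BL/6 mice, given by the labels as 8 to 10 weeks old and by the study's methods as female. The PBS group received phosphate-buffered saline into the joint space, and the CFA group received complete Freund's adjuvant, an oil emulsion with killed mycobacteria that inflames a joint. Tissue was taken 3 weeks after the injection, several mice were pooled, and immune cells carrying CD45 were depleted before the cells were loaded. Each group was 1 library, so no test between the groups was possible, the difference between the groups cannot be told apart from that between 2 libraries, and a ratio or share is given with an interval that covers counting error only. The question was which cell type of the joint makes which chain, and how the chains compared between the libraries.

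Collagens are secreted proteins in which 3 chains wind around each other into a triple helix. Fibril-forming collagens (types I, II, III, V, XI, XXIV and XXVII) assemble into the fibers that carry load in tendon, bone and cartilage. Fibril-associated collagens sit on the surface of those fibers, type VI collagen forms beaded filaments around cells, and type IV collagen builds the mesh of basement membranes under vessels and around nerve and muscle. The condyle of the TMJ differs from most joints in that its surface is fibrocartilage, which holds type I collagen besides the type II collagen of hyaline cartilage.

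After barcodes were limited to those with at least 500 genes, at most 10% mitochondrial UMIs and at most 1% hemoglobin UMIs (a UMI marks 1 captured RNA molecule), 2667 cells of the PBS group and 4014 cells of the CFA group remained, with a median of 7022 and 6509.5 UMIs per cell. Collagen chains took 1.96% of all UMIs in PBS and 1.09% in CFA. The hemoglobin limit alone removed 3178 barcodes in PBS and 339 in CFA, and the 2 libraries shared 2 barcode sequences. The removed PBS barcodes held 163117 collagen UMIs, 1.03% of their UMIs, and the removed CFA barcodes 4984, 0.127%. Without that limit, collagen chains took 1.62% of all UMIs in PBS and 1.01% in CFA. Cells were clustered without the 44 genes and named from markers that hold no collagen, so each name ends in -like. The libraries also differed in collagen reads that lay in cells of the blood. B cell-like cells, which are not known to make collagen, held 0.229% and 0.0289% of collagen in their UMIs (PBS and then CFA, as in every pair of values below), with Col1a1 at 667 and 53.3 counts per 1000000 UMIs (CPM), and 5 cells held 81.3% and 22.4% of those reads. Neutrophil-like cells held 0.461% and 0.0648%, and 5 cells held 84.2% and 77.8% of those reads. The median neutrophil-like cell held 0.0226% and 0.0104%. Values at or below these levels are read as background.

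A label was checked against its markers before its values were used. Chondrocyte-like cells met the detection rule for 5 of 10 cartilage markers (Acan, Sox9, Hapln1, Snorc and Chad) and not for Cnmd, Matn1, Matn3, Ucma and Epyc, and Ibsp, Comp, Panx3, Pth1r and Tnn were among their leading genes. Tenocyte-like cells met the rule for Tnmd, Thbs4, Scx, Mkx, Fmod, Kera and Cilp2, with Tnmd, Kera and Thbs4 as their leading genes, and osteoblast-like cells were led by Bglap and Bglap2. Fibroblast-like cells fell into an adventitial class (Pi16, Dpp4, Sema3c), a sublining class (Smoc2, Gdf10, Mgp, Apod), a lining class (Prg4, the gene of lubricin) and another class led by Angptl1, Cilp and Myoc. Set against the other fibroblast-like cells, the sublining class did not meet the rule for Thy1, Hmcn2 and Cxcl12, nor the adventitial class for Wnt2. The study named its own sublining fibroblasts by Thy1. Lining fibroblast-like cells numbered 31 and 7, too few in CFA to enter any ratio or the order of the classes.

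Many of the genes share a structure that their names do not use. A collagen helix repeats glycine at a fixed spacing, and in the annotation (GENCODE vM21, build GRCm38) 1224 of 1916 inner coding exons of the 44 genes, 63.9%, had a length that is a multiple of 9 bases, the length of 1 helix repeat. Among the inner coding exons of 21907 other coding genes the share was 13.7%. In the fibril-forming genes it was 83.9%, and 48.6% of their inner exons were exactly 54 bases long, against 0.444% elsewhere. The share was 22.2% in Col12a1, 26.5% in Col20a1 and 27.3% in Col26a1, and Col8a1, Col8a2 and Col10a1 had no inner coding exon. Several chains that are built into the same molecule also lie side by side. Col4a1 and Col4a2, the chains of the common basement membrane collagen, start head to head on chromosome 8 with 22 bases in both genes, Col4a3 and Col4a4 start 72 bases apart on chromosome 1, and Col4a5 and Col4a6 start 1309 bases apart on the X chromosome.

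Sequence from RefSeq (GRCm38.p6) held a window around the start of 35 of the 44 genes, in 38 windows of 300 bases. GGGCGG, on either strand, occurred in 60.5% of these windows and in 35.7% of the windows of all genes. CCAAT occurred in 34.2% and 37.4%, TATAAA in 13.2% and 13.6%, and AACCACA in 2.63% and 5.27%, none of which says that a factor binds there. The 4 sequences below are written on the strand of the gene and were chosen because they belong to chains with different leading cell types. The Col4a2 line shows the bases that both genes of the pair share in capitals, with 4 bases on each side (chr8:11312801-11312830, plus strand). The other lines show the 250 bases before the start, with TATAAA or GGGCGG on either strand in capitals: Col3a1, a fibroblast chain (chr1:45311288-45311537, plus strand), Col8a1, highest in tenocyte-like cells of PBS (chr16:57754738-57754987, minus strand), and Col10a1, a chondrocyte chain (chr10:34389731-34389980, plus strand). TATAAA began 117 bases before the start in Col3a1 and 32 bases before it in Col10a1, whereas Col8a1 held 4 copies of the GC-rich word and no TATAAA.
Col4a2: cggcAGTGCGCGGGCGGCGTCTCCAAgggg
Col3a1: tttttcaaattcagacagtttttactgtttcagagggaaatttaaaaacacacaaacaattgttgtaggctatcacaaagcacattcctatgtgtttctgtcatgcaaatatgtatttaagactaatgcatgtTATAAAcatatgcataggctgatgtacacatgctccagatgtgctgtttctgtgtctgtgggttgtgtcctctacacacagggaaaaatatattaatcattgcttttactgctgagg
Col8a1: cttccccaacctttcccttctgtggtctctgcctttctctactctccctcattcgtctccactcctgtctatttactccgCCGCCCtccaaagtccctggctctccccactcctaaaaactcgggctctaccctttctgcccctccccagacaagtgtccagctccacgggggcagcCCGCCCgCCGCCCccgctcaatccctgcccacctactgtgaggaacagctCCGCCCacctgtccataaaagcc
Col10a1: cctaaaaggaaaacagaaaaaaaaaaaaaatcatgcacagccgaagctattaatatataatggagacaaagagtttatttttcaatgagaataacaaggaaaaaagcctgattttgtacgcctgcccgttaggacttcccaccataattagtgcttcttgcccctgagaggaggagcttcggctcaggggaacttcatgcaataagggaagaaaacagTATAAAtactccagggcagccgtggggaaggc

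Which cells invested most in collagen was read from the share of each class's UMIs that came from the 44 genes. Osteoblast-like cells held 8.42% (8.34 to 8.49%) and 11.7% (11.6 to 11.8%), and chondrocyte-like cells held 7.87% (7.83 to 7.92%) and 7.07% (7.03 to 7.11%). Tenocyte-like cells followed with 5.25% (5.22 to 5.28%) and 4.58% (4.54 to 4.62%), ahead of adventitial fibroblast-like cells with 3.83% (3.80 to 3.86%) and 3.54% (3.52 to 3.57%). Lining fibroblast-like cells held 0.830% and 0.977%. Outside the connective tissue classes the shares of the named classes were lower than in every connective tissue class other than the lining class. Nonmyelinating Schwann-like cells held 0.855% and 0.307%, mural-like cells 0.701% and 0.459%, endothelial-like cells 0.498% and 0.330% and myelinating Schwann-like cells 0.428% and 0.309%. These shares are sums over cells and hide how unequal the cells were. In osteoblast-like cells, 35 and 28 in number, 5 cells held 86.1% and 61.2% of the collagen UMIs, and the median cell held 0.918% and 4.25%. The median chondrocyte-like cell held 7.44% and 4.14%, the median tenocyte-like cell 3.71% and 2.95% and the median adventitial fibroblast-like cell 3.28% and 2.51%.

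**Figure D1:**
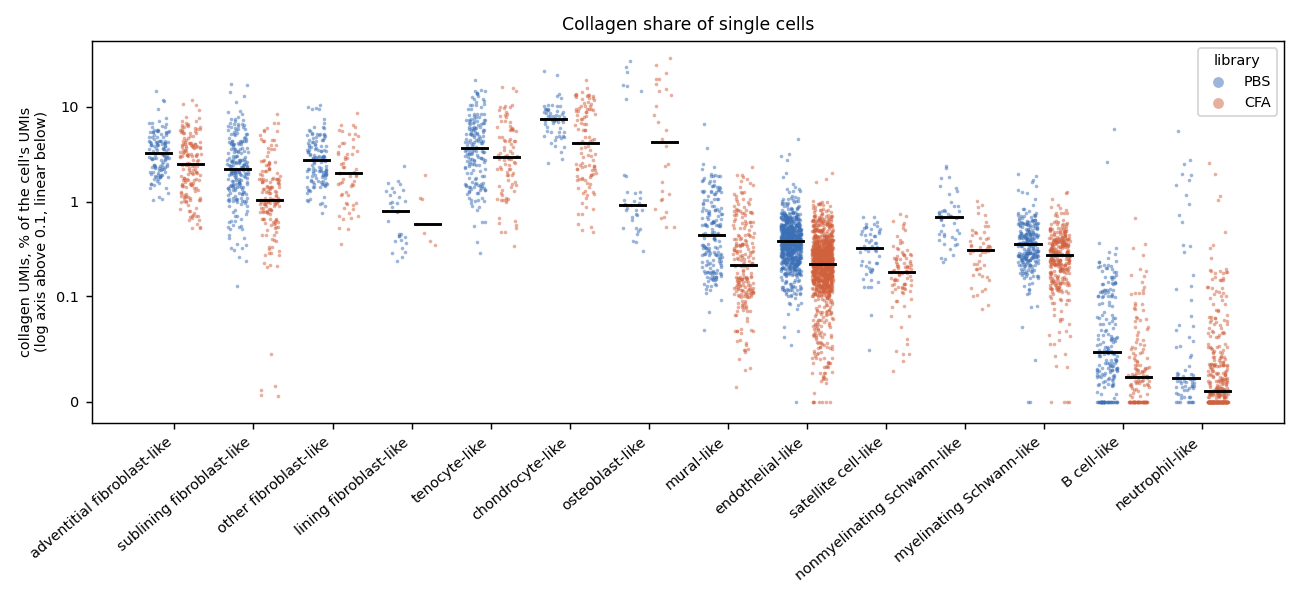
Collagen share of single cells by class. Each point is 1 cell, the vertical axis is the percent of its UMIs from the 44 chain genes (log scale above 0.1, linear below), blue is PBS, orange is CFA and the bar is the median, which in chondrocyte-like cells is 7.44% in PBS and 4.14% in CFA.

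The make-up of that collagen differed by class. Col1a1, Col1a2 and Col3a1, the chains of types I and III, together made up 91.3% and 91.2% of collagen UMIs in osteoblast-like cells, 81.8% and 79.0% in adventitial fibroblast-like cells and 56.0% and 53.0% in chondrocyte-like cells. Basement membrane chains made up 66.5% and 72.1% in endothelial-like cells and 26.8% and 32.5% in mural-like cells, against 4.07% and 7.66% in sublining fibroblast-like cells. Beaded filament chains took 10.2% and 7.50% in chondrocyte-like cells.

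**Figure D2:**
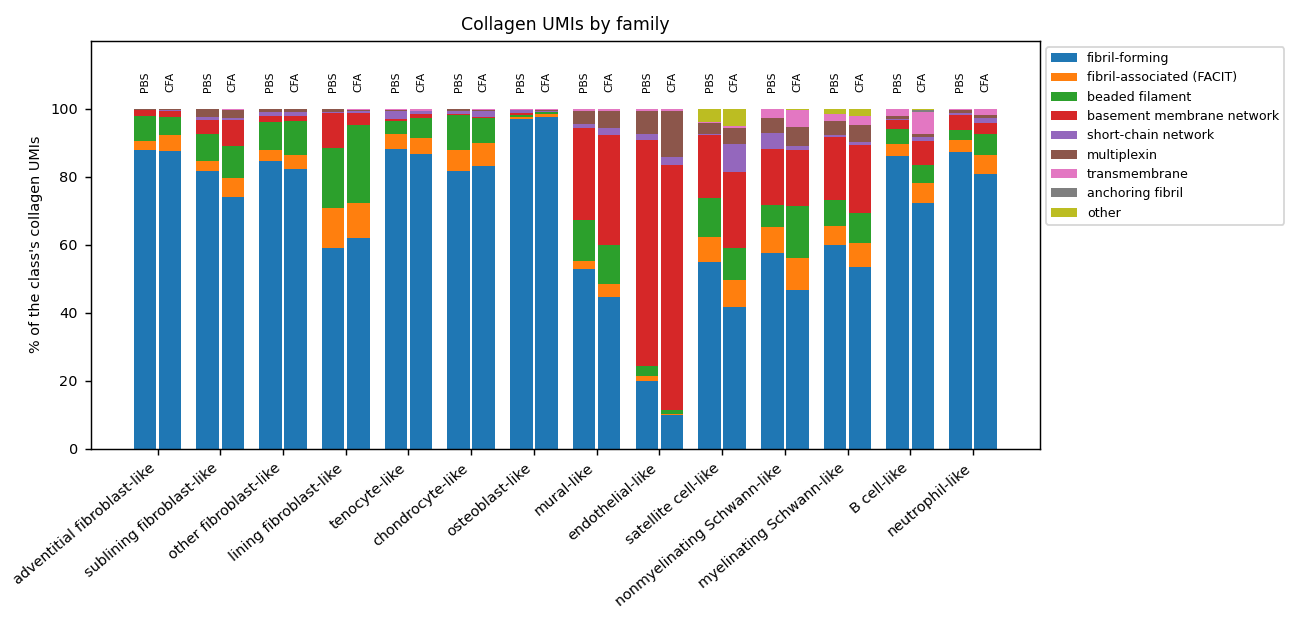
Collagen UMIs by family. Bars start at 0 and stack to 100% of the collagen UMIs of a class, PBS on the left and CFA on the right of each pair. Fibril-forming chains are the larger part in each connective tissue class and basement membrane chains in endothelial-like cells, where they make up 66.5% in PBS and 72.1% in CFA.

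The class with the highest level was then found for each chain in each library separately. Levels are in CPM, the UMIs of a chain summed over the cells of a class and scaled to 1000000 UMIs of those cells. Molecules were tagged at the 3' end, so levels of different chains were set side by side without a length correction. Whether reads in introns were counted is not given in the sources used here, and the part of gene length in the levels, as in the long genes Col23a1 and Col25a1, was not tested. Of the 43 chains with at least 20 UMIs in each library, 32 had the same highest class in both, against 40.6% of the 15600 genes tested, and 7 were also at least 2-fold above the next class in both libraries, against 7.94% of all genes. Those 7 were Col1a1 (osteoblast-like), Col2a1, Col9a1, Col9a2, Col9a3 and Col10a1 (chondrocyte-like) and Col20a1 (nonmyelinating Schwann-like). The lead of Col20a1 in CFA was 2.53 with an interval of 0.870 to 10.0, which holds 1. The lead of Col1a1 in PBS was 2.05 (2.01 to 2.08), in a class where 5 cells held 86.1% of the collagen UMIs. In both libraries 12 chains were highest in chondrocyte-like cells, 3 each in osteoblast-like, adventitial fibroblast-like, tenocyte-like and nonmyelinating Schwann-like cells, 2 each in endothelial-like, satellite cell-like and an unnamed cluster, and 1 each in sublining and other fibroblast-like cells. The 11 chains with another highest class were Col4a5, Col4a6, Col5a2, Col6a5, Col7a1, Col8a1, Col11a1, Col13a1, Col15a1, Col17a1 and Col18a1. For some the classes were tied within counting error. The interval of the lead over the next class held 1 in both libraries for Col4a5, Col6a5, Col7a1 and Col18a1. It held 1 in PBS for Col4a6 and in CFA for Col5a2. The PBS lead of Col17a1 rested on 33 UMIs in 2 cells. Among chains with the same class, the intervals of Col4a4, Col6a6 and Col26a1 also held 1. Col6a4, with 6 and 8 UMIs in all, was not ranked.

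**Figure D3:**
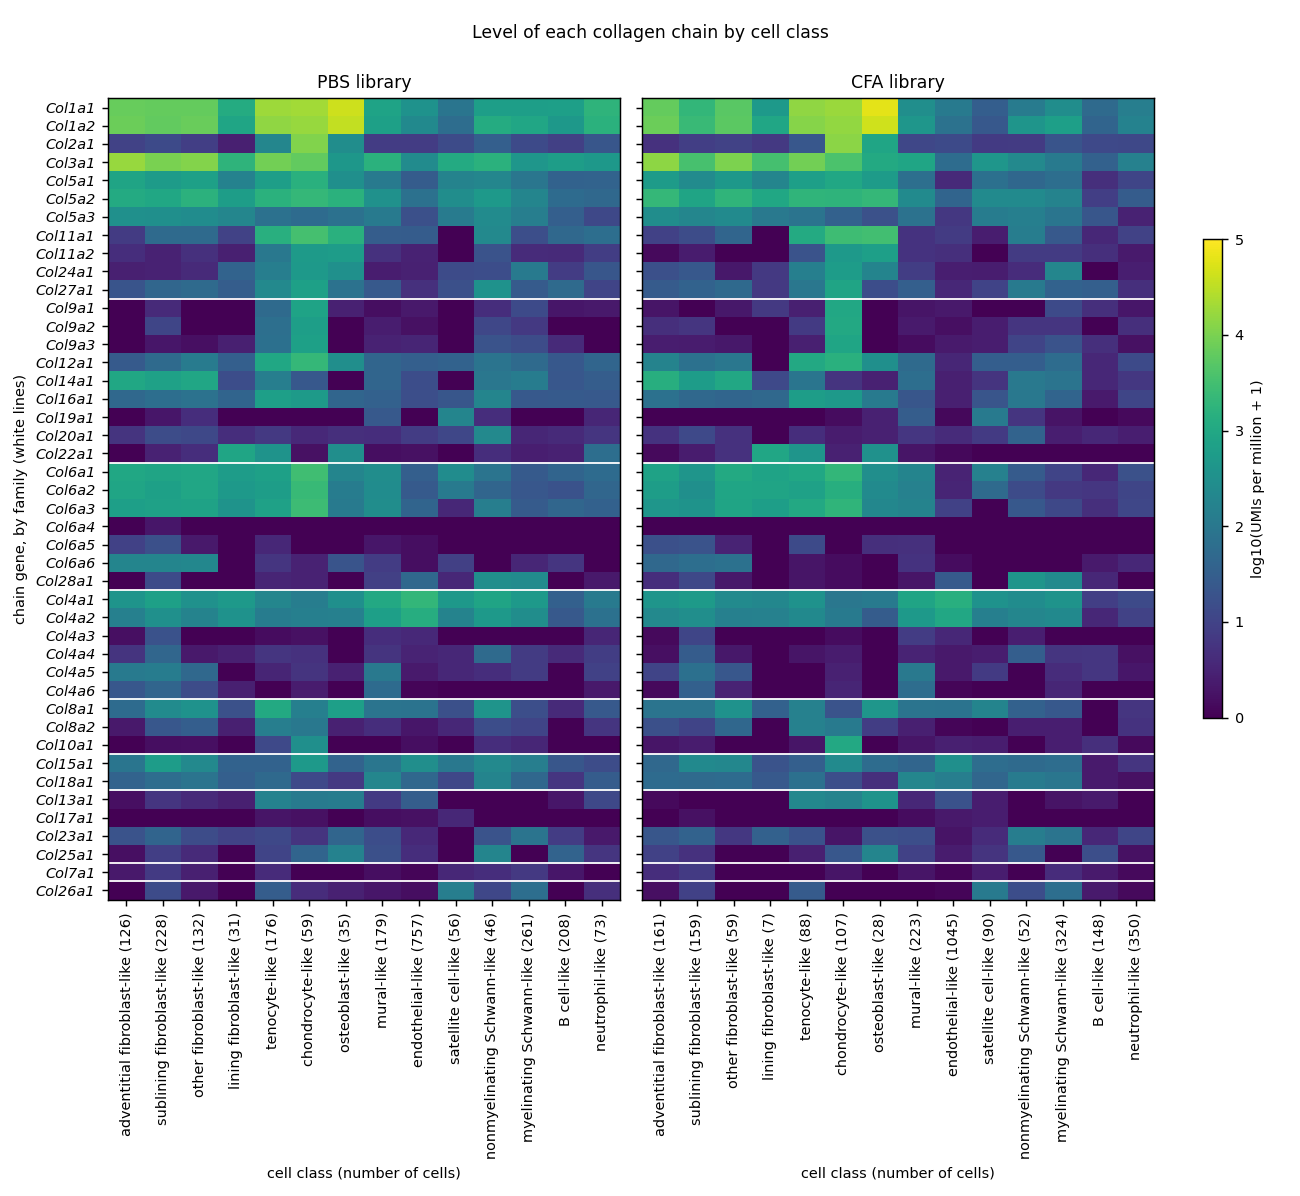
Level of each chain by class. Colors give log10 of CPM plus 1, rows are the 44 chains by family (white lines) and columns are classes with their number of cells, PBS on the left and CFA on the right. The bright Col1a1 and Col1a2 cells of the osteoblast-like column and the Col2a1, Col9a1 to Col9a3 and Col10a1 cells of the chondrocyte-like column stand out in both libraries, with Col2a1 at 11482 and 13789 CPM in chondrocyte-like cells.

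Among the fibril-forming chains, Col1a1 and Col1a2, whose products make type I collagen, the main protein of bone and tendon, were highest in osteoblast-like cells. Col1a1 stood at 42155 and 61360.0 CPM there, 20578 and 18097 in chondrocyte-like, 18283 and 14631 in tenocyte-like and 6986 and 6627 in adventitial fibroblast-like cells. That order is one of sums over cells. The median osteoblast-like cell had 0.105% and 1.61% of its UMIs from Col1a1, and the median tenocyte-like cell 1.16% and 0.669%. Col3a1, the chain of type III collagen that is abundant in loose tissue, had another order: adventitial fibroblast-like cells led with 16641 and 13858, other fibroblast-like cells had 12059 and 10293, and osteoblast-like cells had 449 and 1073. The ratio of Col3a1 to Col1a1 ran from 0.0107 and 0.0175 in osteoblast-like cells to 2.38 and 2.09 in adventitial fibroblast-like cells. In satellite cell-like cells, the muscle stem cell class (Pax7, Myf5), Col1a1 was at 86.8 and 30.7 CPM, below its level in B cell-like cells.

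Col2a1, the chain of cartilage type II collagen (chromosome 15 from 97975602 to 98004695 on the minus strand), stood at 11482 (95% interval 11309 to 11656) and 13789 (13631 to 13948) CPM in chondrocyte-like cells. The next class was osteoblast-like, with 281 and 869.9, where 5 cells held 99.3% and 99.4% of its UMIs. After each cell was thinned to 1000 UMIs, 23.7% and 29.0% of chondrocyte-like cells had a Col2a1 UMI, against 2.01% and 1.40% of B cell-like cells, whose median depth before thinning was 3706.5 and 4024.5 UMIs against 21814 and 13815 in chondrocyte-like cells. The type V and XI chains join type I and II fibers and help set their width. Col11a1 was highest in chondrocyte-like cells of PBS (3381 CPM) and in osteoblast-like cells of CFA (3080.2), Col5a1 was highest in chondrocyte-like cells with 1503 and 930.4, and Col5a3 in adventitial fibroblast-like cells with 320.5 and 279, close to 309 and 192 in the sublining class. Col5a2 was widespread, at 2164 and 1767 in chondrocyte-like, 1571 and 2174 in osteoblast-like and 1153 and 2152 in adventitial fibroblast-like cells. Col11a2 stood at 569 and 661 in osteoblast-like and 522 and 498 in chondrocyte-like cells, Col24a1 at 476 and 572 and Col27a1 at 696 and 818 in the latter, and Col27a1 was also present in nonmyelinating Schwann-like cells, with 358 and 115.

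The fibril-associated chains differed in their highest class among those ranked, which was chondrocyte-like, tenocyte-like, adventitial fibroblast-like, satellite cell-like or nonmyelinating Schwann-like. The chains of type IX collagen, which decorates type II fibers, had 804 and 1003 CPM (Col9a1), 629 and 1032 (Col9a2) and 705 and 855 (Col9a3) in chondrocyte-like cells, while no connective tissue class other than tenocyte-like cells of PBS passed 10 CPM. An unnamed cluster of 11 and 58 cells led by Gpc5, Dok6 and Grik1 had 47.2 and 399.8 CPM of Col9a2, on 4 and 374 UMIs, and 35.4 and 124 of Col9a3. Col12a1, found on type I fibers in tendon and ligament, stood at 2138 and 1489 in chondrocyte-like and 945 and 1018 in tenocyte-like cells. Col14a1, also a type I partner, had the opposite distribution, with 961 and 1393 in adventitial, 890.1 and 989.8 in other and 739 and 572 in sublining fibroblast-like cells but 23.1 and 4.72 in chondrocyte-like cells. Col16a1 was at 649 and 611 in tenocyte-like and 529.9 and 484 in chondrocyte-like cells.

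Col22a1, known from the junctions where muscle meets tendon and cartilage meets synovial fluid, was highest in classes of the joint lining, tendon and bone. Lining fibroblast-like cells had 873 and 925 CPM, tenocyte-like cells 364 and 404 and osteoblast-like cells 289 and 336, whereas adventitial, sublining and other fibroblast-like cells had at most 4.28. In the lining class, which rests on 31 and 7 cells, 5 cells held 49.9% and 99.4% of these UMIs, and after thinning 45.2% and 57.1% of its cells had a Col22a1 UMI against none of 199 and 143 B cell-like cells, which allows up to 1.51% and 2.10%. Col19a1 and Col26a1 were highest in satellite cell-like cells, Col19a1 with 184 and 111 CPM and Col26a1 with 137 and 112. Col20a1 was highest in nonmyelinating Schwann-like cells, with 227 and 38.7.

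The 3 main type VI chains were highest in the same class in both libraries. In chondrocyte-like cells Col6a1 had 2917 and 2042 CPM, Col6a2 2379.6 and 1351 and Col6a3 2737 and 1906. Chondrocytes in cartilage are surrounded by a type VI mesh, but cells with at least 1% Col2a1 held only 19.8% and 26.2% of the Col6a1 UMIs of this class. Col6a1 had 972 and 764 in adventitial fibroblast-like and 695 and 936 in tenocyte-like cells. In satellite cell-like cells Col6a1 stood at 266 and 158 and Col6a3 at 2.63 in PBS and no UMI in CFA, which allows up to 3 counts. Col6a6, a chain related to Col6a3, was highest in fibroblast classes, with 202 and 71.6 in other, 191 and 47.4 in adventitial and 187 and 64.4 in sublining fibroblast-like cells against 2.04 and 0.472 in chondrocyte-like cells. Col28a1 was at 294 and 411 in nonmyelinating and 254 and 245 in myelinating Schwann-like cells.

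Col4a1 and Col4a2, the vessel basement membrane chains, were highest in endothelial-like cells, Col4a1 at 2020.5 (95% interval 1984 to 2057) and 1402 (1374 to 1429.9) CPM and Col4a2 at 1285 and 973 CPM. In mural-like cells, named after the cells that wrap vessels, Col4a1 had 1042 and 819.9 and Col4a2 673 and 501. Molecules of Col4a1 stood to those of Col4a2 in a ratio of 1.57 (1.53 to 1.62) and 1.44 (1.40 to 1.49) in endothelial-like and 1.55 and 1.64 in mural-like cells, whereas the protein holds 2 Col4a1 chains for each Col4a2 chain. Col4a5 and Col4a6, the other head-to-head pair, were near 0 in endothelial-like cells (Col4a5 1.35 and 1.17, Col4a6 0.168 and 0.146). Col4a5 stood at 102 and 102 in mural-like and 124 and 68.5 in sublining fibroblast-like cells, and Col4a6 at 56.1 and 60.0 and at 41.0 and 32.9. The multiplexins Col15a1 and Col18a1, chains whose ends are cut off as soluble fragments, also split. Col15a1 was at 294 and 312 in endothelial-like and 573 and 233 in sublining fibroblast-like cells, and Col18a1 at 192 and 196 in mural-like, 45.3 and 134 in endothelial-like and 352 and 163 in the 18 and 12 lymphatic-like cells.

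Of the short-chain network genes, Col10a1, the chain of enlarging (hypertrophic) chondrocytes, was at 304 and 1053 CPM in chondrocyte-like cells and at most 11.6 in the other connective tissue classes. Its gene (chromosome 10 from 34389981 to 34397085 on the plus strand) lies within the annotated span of Nt5dc1. Col8a1 was broad: tenocyte-like cells had 1065 and 155, osteoblast-like 663 and 429 and other fibroblast-like 349 and 346. Col8a2 was at 139.6 and 159.6 in tenocyte-like cells. Among the transmembrane collagens, Col13a1 was at 162 and 215 in tenocyte-like, 122 and 367 in osteoblast-like and 107 and 173 in chondrocyte-like cells. Col23a1 and Col25a1 were highest in the unnamed cluster led by Gpc5, Col23a1 with 825 and 1139.7 and Col25a1 with 377 and 1357. Members too low to describe by class had, in all cells of each library, 65 and 52 UMIs (Col4a3), 186 and 94 (Col4a4), 70 and 103 (Col6a5), 49 and 45 (Col7a1) and 87 and 21 (Col17a1).

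The chondrocyte-like class was not uniform in its collagens. In PBS 11 of 59 cells and in CFA 23 of 107 cells had at least 1% of their UMIs from Col2a1, a limit set after the values were seen, and 20 and 40 cells had any Col2a1 UMI. Those 11 and 23 cells held 92.9% and 87.8% of the Col9a1 UMIs of the class, 76.0% and 74.7% of the Col11a1 UMIs and 100% and 89.6% of the Col10a1 UMIs. They held 29.2% and 43.1% of the Col1a1 UMIs, 19.8% and 26.2% of the Col6a1 UMIs and 15.0% and 14.5% of the Col12a1 UMIs. The type IX, X and XI chains lay mostly in the same cells as type II. The median share of Col1a1 was 2.02% and 2.08% of the UMIs in the Col2a1 cells and 2.16% and 0.507% in the others. Of the Col2a1 cells, 8 of 11 and 18 of 23 also had at least 1% of their UMIs from Col1a1. Col10a1 was seen in 6 and 19 cells, of which 6 and 18 had Col2a1. The 5 highest cells held 99.8% and 73.7% of Col10a1, and whether any of these barcodes held more than 1 cell was not tested beyond a doublet score.

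**Figure D4:**
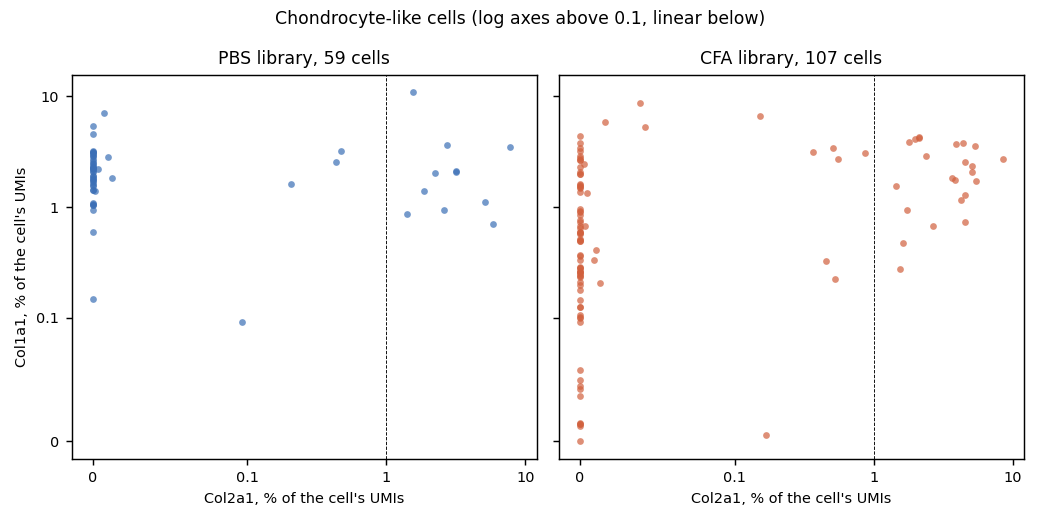
Col2a1 and Col1a1 in single chondrocyte-like cells. Each point is 1 of 59 PBS or 107 CFA cells, and axes give the percent of the cell's UMIs (log scale above 0.1, linear below). The 11 PBS and 23 CFA cells right of the dashed line have at least 1% Col2a1, and most of the other cells sit at 0 on that axis while spanning the Col1a1 axis.

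Chains that assemble together were not always present in a set ratio of molecules. Type I collagen holds 2 chains from Col1a1 for each from Col1a2. The ratio of Col1a1 to Col1a2 UMIs was 1.23 (1.21 to 1.26) and 1.38 (1.36 to 1.40) in osteoblast-like cells, 1.22 and 1.19 in tenocyte-like cells and 0.912 and 0.881 in adventitial fibroblast-like cells. For type V, Col5a1 to Col5a2 was 0.694 and 0.527 in chondrocyte-like and 0.711 (0.663 to 0.762) and 0.261 (0.248 to 0.275) in adventitial fibroblast-like cells, where Col5a1 was lower and Col5a2 higher in CFA. Col8a1 to Col8a2 was 7.63 and 0.972 in tenocyte-like cells. Col11a1 to Col11a2 was 6.48 and 5.58 in chondrocyte-like and 14.7 and 63.9 in tenocyte-like cells.

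The CFA and PBS libraries were then compared within the 10 classes that had at least 30 cells in each, over chains with at least 20 UMIs in the class. The ratio is CFA over PBS of CPM, and past 2-fold means a ratio of at least 2 or at most 0.5. B cell-like and neutrophil-like collagen was also lower in CFA (Col1a1 at 667 and 53.3 CPM in B cell-like and 1808 and 138 in neutrophil-like cells). Its part in the ratios of low chains was examined only by subtracting the B cell-like level, an alternative in which 3 ratios past 2-fold reversed. The part of the neutrophil-like level was not tested. The largest neutrophil-like cluster was led by Camp in PBS (46 of 73 cells) and by Retnlg in CFA (183 of 350). A chain is called above the blood cell level in a class by a criterion set after the values were seen. The lower bound of its interval had to exceed 2 times the level in both B cell-like and neutrophil-like cells in each library. Where those cells held no UMI of a chain, 1 UMI was enough, as for Col17a1 in satellite cell-like cells (1 UMI in each library). Elsewhere a chain near 0 in 1 library could not meet it.

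Sublining fibroblast-like cells are named after the loose tissue under the synovial lining, but their place in the joint was not seen here. They held 3.04% (3.01 to 3.06%) and 1.26% (1.24 to 1.28%) of collagen, and the median cell 2.19% and 1.05%. Of 35 chains, 12 were past 2-fold lower in CFA (5.41% of all genes were) and 1 was past 2-fold higher (10.7% of all genes were), with a median ratio of 0.628 against 1.04 over all genes. Col1a1 had 6549.7 and 2021 CPM and a ratio of 0.309 (0.296 to 0.321), and Col3a1 had 9919.9 and 3449 and a ratio of 0.348 (0.337 to 0.359). Col1a2 (0.387), Col5a1 (0.471), Col6a1 (0.465), Col6a2 (0.444), Col8a1 (0.315), Col8a2 (0.436), Col9a2 (0.480), Col11a1 (0.261) and Col15a1 (0.407) were the others past the limit, besides Col6a6. After thinning, 87.9% and 63.1% of the cells had a Col1a1 UMI, against 18.6% and 6.29% of B cell-like cells. Of the 25 chains above the blood cell level, 9 were past 2-fold lower and none higher, and Col8a2, Col9a2 and Col11a1 were not among the 25. These ratios depended on how cells were assigned. With each barcode classed on its own markers instead of by cluster, the collagen share ratio went from 0.415 to 0.80, and Col1a1 to 0.770, Col1a2 to 0.823 and Col3a1 to 0.762, none past 2-fold. For means over cells 5 chains were past 2-fold lower. Over all fibroblast-like cells together the share was 3.40% and 2.84%. Col24a1, with 4 and 33 UMIs, was the chain past 2-fold higher.

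Adventitial fibroblast-like cells are named after the tissue around vessels, but their place in the joint was not seen here either. They held 3.83% and 3.54% of collagen. Of 29 chains, 4 were past 2-fold lower (5.83% of all genes) and 4 past 2-fold higher (8.31%), and the median ratio was 1.05. Col1a1, Col1a2 and Col3a1 had ratios of 0.949 (0.927 to 0.970), 0.981 (0.960 to 1.0) and 0.833 (0.820 to 0.845). Col6a6 was lower in all 3 fibroblast classes that could be compared, with ratios of 0.248 (0.203 to 0.302) in adventitial, 0.344 (0.272 to 0.433) in sublining and 0.354 (0.268 to 0.461) in other fibroblast-like cells, and lay past 2-fold in each alternative run (from 0.247 to 0.397 in the 12 alternatives for the adventitial class). Col4a5 had 112 and 9.67 CPM and a ratio of 0.0861 (0.0569 to 0.126), and Col4a6 went from 37 UMIs to 1. On the other side, Col12a1 had 24.7 and 168 CPM, where the PBS level was near the 23.2 of B cell-like cells and below the 41.1 of neutrophil-like cells. Its ratio of 6.81 (4.97 to 9.56) is over that background value, and was 112 with the B cell-like level subtracted, 3.46 at a coarser clustering and 0.780 with each barcode classed on its own. Col8a2, Col24a1 and Col25a1 were also past 2-fold higher but rested on 2, 3 and 1 UMIs in PBS, and Col8a2 had 1.05 at the coarser clustering. Of the 8 chains past 2-fold in this class, Col4a6 and Col6a6 were above the blood cell level, Col4a6 on 1 UMI in CFA. In other fibroblast-like cells 5 of 26 chains were past 2-fold lower (6.22% of all genes): Col4a5, Col4a6, Col6a6, Col20a1 and Col23a1, of which the first 3 were above the blood cell level. None of the 26 was past 2-fold higher, against 4.74% of all genes, and Col1a1 had 0.775 (0.750 to 0.802).

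Tenocyte-like cells held 5.25% (5.22 to 5.28%) and 4.58% (4.54 to 4.62%) of collagen. Of 33 chains, 9 were past 2-fold lower (6.55% of all genes) and 1 past 2-fold higher (3.78%). The main tendon chains differed little: Col1a1 had a ratio of 0.80 (0.786 to 0.815), Col1a2 of 0.817 (0.801 to 0.833) and Col3a1 of 1.01 (0.984 to 1.03). The chains past the limit were others, several of them chains of cartilage. Col8a1 went from 2381 to 175 UMIs, 1065 and 155 CPM, a ratio of 0.146 (0.124 to 0.170), and after thinning 28.0% and 6.82% of the cells had a UMI against 1 of 199 and 0 of 143 B cell-like cells. Col2a1 had 199 and 21.3 CPM and a ratio of 0.107 (0.0678 to 0.161). Col9a1, Col9a2, Col9a3 and Col10a1 had 116, 149, 155 and 26 UMIs in PBS and 2, 7, 2 and 1 in CFA, Col11a2 had a ratio of 0.182 (0.109 to 0.288), Col25a1 of 0.180 and Col27a1 of 0.428. Several of these ratios changed with the clustering. With the collagen genes kept in the clustering, Col8a1 went to 0.510, Col2a1 to 0.475 and Col9a1 to 0.767, and without the hemoglobin limit to 0.467, 0.481 and 0.768, whereas Col11a2 stayed from 0.147 to 0.194 in the 11 alternatives. Col6a5 was the chain past 2-fold higher, with 6 and 14 UMIs. Of the 10 chains past 2-fold, Col6a5, Col8a1, Col11a2 and Col27a1 were above the blood cell level.

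Chondrocyte-like cells held 7.87% (7.83 to 7.92%) and 7.07% (7.03 to 7.11%) of collagen, but the median cell held 7.44% and 4.14%, and no PBS cell and 29 CFA cells lay under 2%. Cells at or above 5% numbered 46 in each library. The ratio of the shares was 0.898, and 1.1 with the collagen genes kept in the clustering. Of 29 chains, 2 were past 2-fold lower (5.97% of all genes) and 1 past 2-fold higher (6.96%). Col2a1 had a ratio of 1.2 (1.18 to 1.22), Col1a1 of 0.879 (0.866 to 0.893), Col1a2 of 0.903 (0.888 to 0.918), Col9a1 of 1.25 (1.16 to 1.34) and Col3a1 of 0.611 (0.593 to 0.629). Col10a1 went from 304 to 1053 CPM, a ratio of 3.46 (3.13 to 3.84), and after thinning 6.78% and 11.2% of the cells had a UMI against none of the B cell-like cells. That ratio rested on few cells: 5 held 99.8% of its UMIs in PBS, and without the barcodes of the 5% highest doublet scores it was 0.931. Col8a1 was lower, 0.126 (0.0864 to 0.178), with 210 and 38 UMIs, and this ratio stayed from 0.0156 to 0.182 in the 12 alternatives. It also rested on few cells: 18 of 59 and 13 of 107 had a Col8a1 UMI, and 5 cells held 89.5% and 68.4% of its UMIs. Col14a1 had 34 and 10 UMIs and was not above the blood cell level, unlike Col8a1 and Col10a1.

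Endothelial-like cells were the largest class, with 757 and 1045 cells, and held 0.498% (0.492 to 0.504%) and 0.330% (0.326 to 0.334%) of collagen. Their own basement membrane chains were not past 2-fold, Col4a1 with a ratio of 0.694 (0.675 to 0.713) and Col4a2 of 0.757 (0.732 to 0.782), and Col15a1 had 1.06 (0.995 to 1.13). Col18a1, whose C-terminal fragment is endostatin, was the chain past 2-fold higher of 30 (5.03% of all genes were): it went from 269 to 917 UMIs, 45.3 (95% interval 40.1 to 51.1) and 134 (125 to 143) CPM, a ratio of 2.95 (2.57 to 3.39). This ratio stayed from 2.10 to 3.45 in the 14 alternatives, with 5 cells holding 23.0% and 22.7% of the UMIs, and after thinning 1.21% and 3.64% of the cells had one against none of the B cell-like cells. The PBS level was less than 2 times that of neutrophil-like cells, which had 27.8 and 0.659 CPM. By the criterion used here, Col18a1 was therefore not above the blood cell level in PBS. That 27.8 CPM rested on 23 UMIs in 4 of 73 cells, and B cell-like cells had 4.84 and 1.27 CPM. The Col18a1 gene overlaps that of Slc19a1 in the annotation. The level of Col18a1 in mural-like cells was 192 and 196, a ratio of 1.02 (0.889 to 1.18), and in myelinating Schwann-like cells 45.7 and 91.7, a ratio of 2.0 (1.45 to 2.81). In endothelial-like cells 15 chains were past 2-fold lower (6.32% of all genes): Col1a1, Col1a2, Col3a1, Col5a1, Col5a3, Col6a1, Col6a2, Col6a3, Col11a1, Col12a1, Col14a1, Col16a1, Col20a1, Col23a1 and Col25a1. None of the 15 was above the blood cell level, and Col1a1, with a ratio of 0.335, had 0.965 without the highest doublet scores and 1.16 with log-normalized counts.

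In mural-like cells 3 of 27 chains were past 2-fold lower (4.83% of all genes), Col1a1 (0.377), Col11a1 (0.150) and Col15a1 (0.476, 0.367 to 0.614), and none was past 2-fold higher (3.7% of all genes). Of these 3, Col15a1 was above the blood cell level. Col3a1 had a ratio of 0.556, Col4a1 of 0.787 and Col4a2 of 0.746. Nonmyelinating Schwann-like cells, 46 and 52 in number, came from a cluster led by Cadm2 and Cdh19 (43 and 36 cells) and another led by Fabp7 (3 and 16 cells), so the make-up of the class differed between the libraries, and its part in the ratios was not tested. In this class 15 of 24 chains were past 2-fold lower (7.07% of all genes) and 1, Col23a1 (7.27, 2.99 to 23.0), past 2-fold higher (11.9%). For means over cells Col4a1 was 0.521 and Col4a2 0.757. Of the 15 lower chains, 7 were above the blood cell level: Col4a1 (0.323), Col4a2 (0.381), Col5a1 (0.227), Col8a1 (0.0926), Col15a1 (0.242), Col20a1 (0.170, 0.102 to 0.276) and Col27a1 (0.320). The others were Col1a1, Col1a2, Col3a1, Col6a1, Col6a2, Col6a3, Col12a1 and Col25a1. The Col8a1 ratio rested on few cells: its 108 PBS UMIs lay in 5 of 46 cells and its 22 CFA UMIs in 10 of 52. In myelinating Schwann-like cells 6 of 26 were past 2-fold lower (2.95% of all genes), Col1a1, Col3a1, Col6a1, Col6a2, Col6a3 and Col15a1 (0.434, 0.325 to 0.574), and 1, Col18a1, past 2-fold higher (6.18%), in a class where the median gene itself was 0.106 higher in log2. Of these 7, Col15a1 was above the blood cell level. In satellite cell-like cells 5 of 17 were past 2-fold lower (6.69% of all genes), Col1a1, Col1a2, Col3a1 (0.368, 0.315 to 0.429), Col5a1 (0.404, 0.270 to 0.60) and Col6a2, and 2 past 2-fold higher (9.47%), Col8a1 and Col18a1. Of these 7, Col5a1 was above the blood cell level. Col8a1 there went from 6 to 118 UMIs, a ratio of 11.5 (5.12 to 31.9) that stayed from 6.96 to 21.5 in the 14 alternatives, though 5 cells held 100% and 77.1% of it. Its PBS level of 15.8 CPM lay below the 24.2 of neutrophil-like cells, so the ratio is over a background value. That 24.2 rested on 20 UMIs in 5 of 73 neutrophil-like cells, and B cell-like cells of PBS had 2.90 CPM.

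**Figure D5:**
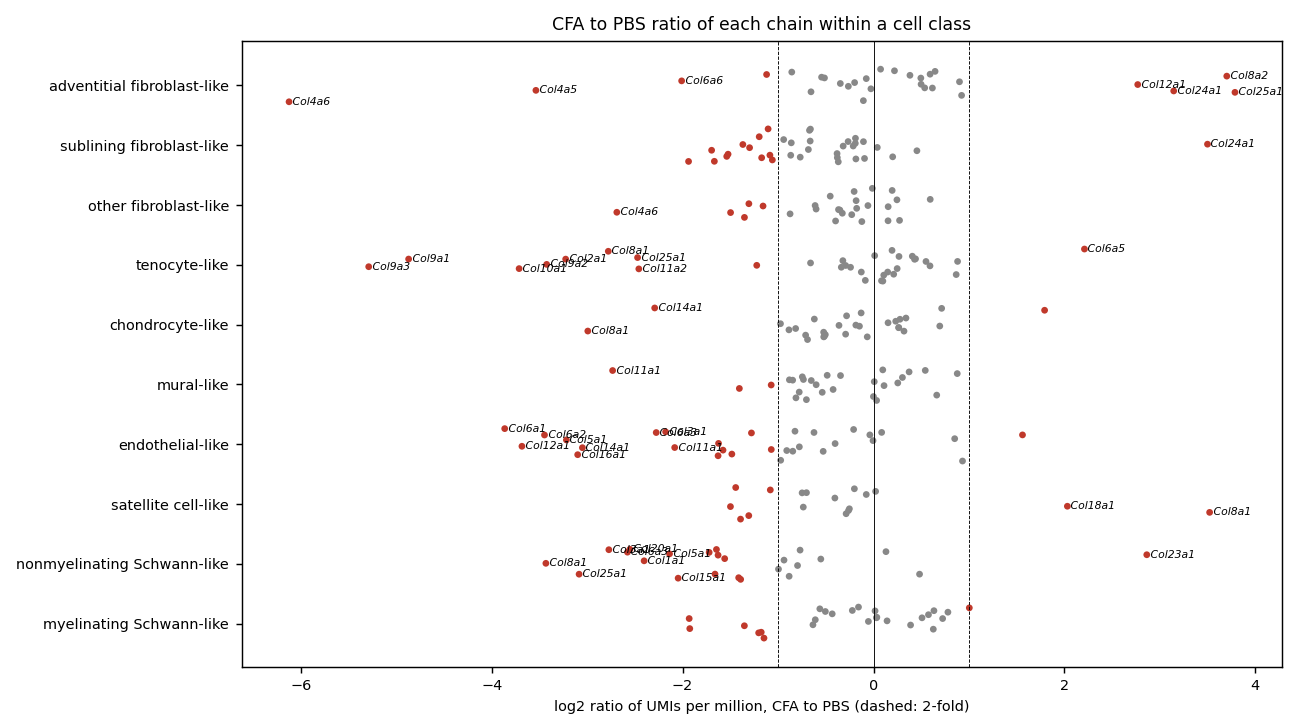
CFA to PBS ratio of each chain within a class. The horizontal axis is the log2 ratio of CPM, each point is 1 chain with at least 20 UMIs in the class and a UMI in each library, red points lie past 2-fold (dashed lines) and those past 4-fold carry their name. Sublining fibroblast-like cells have 12 red points on the left, adventitial fibroblast-like cells have 4 on each side, and endothelial-like cells have 15 on the left and Col18a1 on the right.

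Osteoblast-like cells, 35 and 28 in number, had fewer than 30 cells in CFA and were not compared. Their values are set side by side: Col1a1 stood at 42155 and 61360.0 CPM, Col1a2 at 34248 and 44434, Col5a2 at 1571 and 2174 and Col11a1 at 1517 and 3080.2. Cells with at least 1% of their UMIs from Col1a1 numbered 7 of 35 and 14 of 28.

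Genes that modify, fold, cut or cross-link collagen were followed as a list of 40, all of them with at least 20 UMIs in each library. The highest class was the same in both libraries for 26 genes, against 40.6% of all genes, and for 13 of these it was chondrocyte-like, for 5 adventitial fibroblast-like and for 2 each mural-like and tenocyte-like. Serpinh1, the collagen-specific chaperone HSP47, was at 2471 and 1744 CPM in chondrocyte-like and 1588 and 2096 in osteoblast-like cells. In sublining fibroblast-like cells 4 of 38 were past 2-fold lower in CFA (5.41% of all genes) and 3 higher (10.7%). The lowest ratios were those of Pcolce, an enhancer of procollagen cleavage, with 0.434 (0.386 to 0.487) and Serpinh1 with 0.434 (0.397 to 0.474), and the highest those of Tll1, a procollagen protease, with 2.82 (1.54 to 5.37) and P4ha3, a subunit of a prolyl hydroxylase, with 6.23 (3.20 to 13.3). In adventitial fibroblast-like cells 1 of 36 was past 2-fold lower (5.83% of all genes), Pcolce2 (0.327, 0.303 to 0.353), and 5 higher (8.31%), led by P4ha3 (6.62, 4.61 to 9.81) and Lox (5.42, 4.35 to 6.82), the enzyme that starts cross-linking. The second lowest there was Itga2 (0.522, 0.362 to 0.754), a chain of a collagen receptor. In other fibroblast-like cells 1 of 36 was past 2-fold lower (6.22% of all genes), Itga1 (0.399, 0.225 to 0.669), followed by Itga2 (0.633, 0.410 to 0.955), and 3 were past 2-fold higher (4.74%), led by Lox (2.79, 1.99 to 3.94) and Plod2, a lysyl hydroxylase (2.35, 2.09 to 2.64). In tenocyte-like cells 3 of 37 were lower (6.55% of all genes) and 1 higher (3.78%), and in chondrocyte-like cells none of 36 was lower (5.97%) and 2 were higher (6.96%). In mural-like cells none of 35 was lower (4.83%) and 1 was higher (3.7%), and in endothelial-like cells 6 of 35 were lower (6.32%) and 2 higher (5.03%). In nonmyelinating Schwann-like cells 6 of 20 were lower (7.07%) and 1 higher (11.9%), in myelinating Schwann-like cells 5 of 28 were lower (2.95%) and none higher (6.18%), and in satellite cell-like cells 4 of 20 were lower (6.69%) and 2 higher (9.47%).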

How the data were processed

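Single-cell RNA-seq was run on 2 libraries, 1 for each group (PBS and CFA), grouped by their labels. The authors deposited UMI counts per gene and barcode, made with Cell Ranger 7.0.1 on mm10 per the submitters' processing notes. Whether intronic reads were counted is not given in the sources used here. The labels and the study's methods differ on the 10x chemistry version and the digestion enzymes, and the study states more CFA cells than the 5709 CFA barcodes deposited (7671 for PBS). A minimum of 500 genes and a limit of 10% on mitochondrial UMIs left 5845 and 4353 barcodes, and those that also had at most 1% hemoglobin UMIs, 2667 and 4014, were kept, with 27201994 and 44432717 UMIs.

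The 44 collagen genes were removed, and the rest was normalized with SCTransform per library, integrated on 3000 genes and clustered with Seurat 5.3.0 (200 principal components, resolution 1.5, seed 1). Of 36 clusters, 31 took a name from at least 3 markers detected in at least 25% of cells and 2-fold above the other cells, and 5 stayed unnamed. The resulting -like classes were rebuilt here and are not the study's own annotation. UMIs of each gene were summed per class and library and scaled to 1000000 UMIs of those cells (CPM). Intervals are exact (95%, Poisson for levels, Clopper-Pearson for shares and, conditionally, for ratios) and cover counting error only. An absent chain allows up to 3 counts. Classes needed 10 cells in each library for ranking and 30 for ratios. Doublets were kept: a Scrublet threshold (scanpy 1.11.5) marked 21 and 2 barcodes, too few to be usable, so leaving out the 5% highest scores (135 and 217 barcodes) was run as an alternative. No result was tested, because each group had 1 library.

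Chains were named with class levels where they had at least 20 UMIs in each library and 50 CPM in a class of each, otherwise with total UMIs, and ratios were named where past 2-fold or for the 3 highest chains of a class. Processing genes were named for their 2 highest and 2 lowest ratios in fibroblast classes. The members, gene lists and markers were chosen with earlier results of these data known. The limit against blood cell levels, the 1% Col2a1 limit, the chain pairs, the motifs and 2 alternatives (subtracting the B cell-like level, and cells with at least 5000 UMIs) were set after values were seen. The other alternatives were the clustering genes, resolution 0.8, log-normalized counts of 2000 genes without integration, no hemoglobin limit, 20% mitochondrial UMIs, 1000 genes per barcode, classing each barcode by its own markers, a denominator without collagen, means over cells, scaling by the median ratio, a 1.5-fold limit, at least 50 UMIs and thinning to 2000 UMIs. Gene positions are from GENCODE vM21 and start windows from RefSeq GRCm38.p6. Protein sequences were not used here.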

Additional observations from a re-analysis of the deposited data

Results flagged for a closer look

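Col8a1, Col8a2, Col10a1, Col12a1, Col23a1 and Col25a1 had CFA to PBS ratios past 2-fold in opposite directions in different classes. The difference between the classes was not tested in any of them, since each group was 1 library. The lower ratios of Col8a1 and the higher ratio of Col10a1 were formed from levels whose intervals lay above 2 times those of B cell-like and neutrophil-like cells in each library, and none of the other ratios below was.

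Col8a1 was lower in CFA in sublining fibroblast-like (ratio 0.315), tenocyte-like (0.146), chondrocyte-like (0.126) and nonmyelinating Schwann-like cells (0.0926) and higher in satellite cell-like cells (11.5, over a PBS level below that of neutrophil-like cells). In PBS, 5 cells held 89.5% of the Col8a1 UMIs of chondrocyte-like cells and 100% of those of nonmyelinating Schwann-like cells. Col8a2 was lower in sublining fibroblast-like cells (0.436) and higher in adventitial fibroblast-like cells (13.0, on 2 UMIs in PBS). Col10a1 was lower in tenocyte-like cells (0.0762, on 26 UMIs in PBS and 1 in CFA) and higher in chondrocyte-like cells (3.46). Col12a1 was lower in nonmyelinating Schwann-like (0.376) and endothelial-like cells (0.0778) and higher in adventitial fibroblast-like cells (6.81, over a PBS level near that of B cell-like cells). Col23a1 was lower in other fibroblast-like (0.404, interval 0.120 to 1.09, on 23 and 5 UMIs) and endothelial-like cells (0.324) and higher in nonmyelinating Schwann-like cells (7.27). Col25a1 was lower in tenocyte-like (0.180), nonmyelinating Schwann-like (0.118) and endothelial-like cells (0.412) and higher in adventitial fibroblast-like cells (13.8, on 1 UMI in PBS), and its levels in tenocyte-like, endothelial-like and adventitial fibroblast-like cells lay below those of B cell-like cells in both libraries.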

How the results depend on the processing

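No paired analysis was possible because each group had 1 library. Of the 88 chain ratios past 2-fold, 74 kept their direction in each alternative that gave a value and 14 reversed in at least 1. In size they were less stable: 32 of the 88 lay past 2-fold in each alternative that gave a value, and 56 did not in at least 1. The alternatives counted for a ratio, here and above, include the 1.5-fold limit, which cannot change a ratio. They also include the denominator without collagen and scaling by the median ratio, each of which multiplies all ratios of a class by the same factor. The number of chains with the same highest class in both libraries ran from 23 to 32. Depth limits the low chains: in several classes a chain rested on fewer than 10 UMIs in a library. The causes of the changes below were not tested. Some alternatives gave no value for a class, because too few of its cells were left under its name: sublining fibroblast-like at resolution 0.8, without the hemoglobin limit and with log-normalized counts, adventitial fibroblast-like under the last 2 of these, tenocyte-like at resolution 0.8, with log-normalized counts and with each barcode classed on its own, and chondrocyte-like under the last 2 of these.

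The number of chains past 2-fold lower in CFA was 9 over all fibroblast-like cells, 5 without the hemoglobin limit and 2 for means over cells. It was 12 in sublining fibroblast-like cells, 5 for means over cells and 20 at a 1.5-fold limit. It was 4 in adventitial fibroblast-like cells, 9 at resolution 0.8 and 2 with at least 50 UMIs. It was 9 in tenocyte-like cells, 3 with collagen genes kept in the clustering, 4 without the hemoglobin limit, 3 at 20% mitochondrial UMIs and 3 at 1000 genes per barcode.

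The CFA to PBS ratio of the collagen share moved by more than the counting interval in the following cases. Over all fibroblast-like cells it was 0.835, and 0.844 with collagen genes kept, 0.882 at resolution 0.8, 0.885 with log-normalized counts, 0.873 without the hemoglobin limit, 0.873 at 20% mitochondrial UMIs, 0.872 at 1000 genes, 0.743 for means over cells, 0.857 without the highest doublet scores and 0.886 after subtracting the B cell-like level. In sublining fibroblast-like cells it was 0.415, and 0.446 with collagen genes kept, 0.473 at 20% mitochondrial UMIs, 0.469 at 1000 genes, 0.80 with each barcode classed on its own, 0.407 with collagen left out of the denominator, 0.547 for means over cells, 0.402 after scaling by the median ratio, 0.438 after subtraction and 0.391 in cells with at least 5000 UMIs. In adventitial fibroblast-like cells it was 0.927, and 0.90 with collagen genes kept, 0.830 at resolution 0.8, 0.917 at 1000 genes, 0.832 with each barcode classed on its own, 0.824 for means over cells and 0.975 after subtraction. In tenocyte-like cells it was 0.872, and 0.744 with collagen genes kept, 0.742 without the hemoglobin limit, 0.731 at 20% mitochondrial UMIs, 0.749 at 1000 genes, 0.90 without the highest doublet scores and 0.907 after subtraction. In chondrocyte-like cells it was 0.898 and reversed to 1.1 with collagen genes kept, 1.01 without the hemoglobin limit and 1.09 at 1000 genes. It was 0.968 at 20% mitochondrial UMIs, 0.890 with collagen left out of the denominator, 0.717 for means over cells, 0.775 without the highest doublet scores, 0.924 after scaling by the median ratio and 0.921 after subtraction.

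Among single chains, classing each barcode on its own reversed Col25a1 (0.138) and Col12a1 (0.780) in adventitial, Col8a2 (1.5) in sublining, Col23a1 (7.72) and Col4a6 (1.82) in other fibroblast-like, Col1a1 (1.35) in satellite cell-like and Col23a1 (1.99) in endothelial-like cells. Log-normalized counts reversed Col23a1 (1.03) in other fibroblast-like and Col11a1 (1.18), Col1a2 (1.07) and Col1a1 (1.16) in endothelial-like cells. Leaving out the highest doublet scores reversed Col10a1 (0.931) in chondrocyte-like cells. Subtracting the B cell-like level reversed Col11a1 (2.20) in sublining fibroblast-like, Col14a1 (1.18) in chondrocyte-like and Col1a1 (1.88) in mural-like cells.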
